A study of Mus musculus with 4 samples.

Results

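The genes described here are 10 members of the tumour necrosis factor (TNF) superfamily of ligands and receptors. They were taken from a fixed list of names, Tnf, Tnfsf9, Tnfsf10, Tnfsf12, Tnfsf13b, Tnfsf14, Fasl, Cd40, Tnfrsf1b and Tnfrsf9, and all 10 were found among the 32285 genes of the count matrix. They were measured by droplet single-cell RNA sequencing, a method that tags each messenger RNA molecule with a unique molecular identifier (UMI), in CD45+ immune cells sorted from mouse melanomas. The list holds 7 ligands, Tnf to Fasl, and 3 receptors, Cd40, Tnfrsf1b and Tnfrsf9.

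The tumours grew from YUMM1.7 melanoma cells carrying the model antigen ovalbumin (YUMM1.7OVA) in Rag2-/- hosts, which have no T or B cells of their own. Every host received OT-1 T cells, CD8+ cells that recognise an ovalbumin peptide, on day 7 as adoptive cell therapy (ACT), and tumours were taken on day 10, 72 h later. The 4 groups differed in the injected line. NTT was naive to targeted therapy, RTT was resistant to it, RTT_ROSA26 was the resistant line with a control guide against the Rosa26 locus, and RTT_PTGS12KO was the resistant line in which the cyclooxygenase genes Ptgs1 and Ptgs2 were knocked out. The knockout was in the cancer cells, not in the sorted immune cells. Each group was 1 sample from 1 injected line, and the labels give 1 tumour per condition whereas the study's legends describe pooled tumours, which was not settled here.

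TNF superfamily ligands are trimeric proteins, mostly held on the cell surface, that bind receptors on neighbouring cells. Receptors such as TNFR2 (Tnfrsf1b), CD40 and CD137 (Tnfrsf9) recruit TRAF adaptors and switch on NF-kB, whereas ligands such as FASL and TRAIL (Tnfsf10) can trigger death of the cell that carries their receptor. In tumours the family is known for costimulation of T cells and NK cells and for licensing of antigen-presenting myeloid cells through CD40.

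The samples held 33368 cells of 17 cell types named by the authors, between 6836 and 10296 cells a sample, with total UMI counts from 69332486 to 146829369. Levels are given as counts per 1000000 UMIs of the summed cells (CPM). With 1 sample per group there was no replicate error and no test was made. Intervals are 95% intervals, exact Poisson for CPM, exact Clopper-Pearson for shares and an approximate normal interval for log2 ratios, and they cover counting error only. Monocytes (Monocyte_1, Infl_Mono and Monocyte_3) numbered 6619 in NTT, 4015 in RTT_PTGS12KO, 522 in RTT and 144 in RTT_ROSA26. Macrophages (TAM_C1q, TAM_Spp1, TAM_cycling, TAM_H2Ab1 and Ctsk_Macro) numbered 308, 5207, 6734 and 5993 in the same order. Different clusters filled these classes, since 192 of the 308 NTT macrophages were TAM_H2Ab1 whereas 3412 RTT macrophages were TAM_C1q, and 86 of the 144 RTT_ROSA26 monocytes were Infl_Mono, a cluster led by interferon-stimulated genes. The marker lists for NK cells, T cells, CCR7+ DCs (named DC3), cDC1s, neutrophils and mast cells were highest in the class of that name for every gene. For monocytes 2 of 9, for macrophages 4 of 9, for cDC2s 3 of 5 and for Myofibrobl 4 of 7 stroma and tumour markers were highest there, with Mlana and Dct at 0 UMIs in Myofibrobl. Ptprc, the gene of the sorted CD45 protein, had a UMI in 23.4% of Myofibrobl cells and in 72.1% to 100% of cells of each other type. The samples were pooled for 3 droplet loads, so free RNA was common to them, and 0 cell barcodes were shared between samples within a load.

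The members lie on 7 chromosomes (GENCODE annotation of GRCm38), with 3 on chromosome 17 and 2 on chromosome 4. Tnf is at chr17:35199381-35202007 on the minus strand between the lymphotoxin genes Ltb and Lta. Tnfsf9 at chr17:57105325-57107757 and Tnfsf14 at chr17:57189492-57194177 both neighbour Cd70. Tnfsf12 at chr11:69686250-69695849 overlaps a read-through gene, Tnfsfm13, and an antisense transcript, Tnfsf13os, so its counts are uncertain where reads could be assigned to either. Tnfrsf9 at chr4:150914562-150946102 lies inside an interval that Camta1 overlaps on the opposite strand. The others are Tnfsf10 at chr3:27317028-27342427, Tnfsf13b at chr8:10006467-10039072, Fasl at chr1:161780689-161788495, Cd40 at chr2:165055627-165072948 and Tnfrsf1b at chr4:145213463-145246870.

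RefSeq promoter windows of GRCm38.p6, 250 bases before to 50 bases after a start site, were matched for 7 of 10 members, with 9 windows in all. Cd40, Tnfsf9 and Tnfsf12 had none. Each window was searched on both strands for an interferon response element core (GAAANNGAA), a GAS element (TTCNNNGAA, the same on both strands) and a kappa B-type sequence (GGNNNTTCC). Of 32851 mouse promoter windows of this length, 8.56% held the first, 8.30% the second and 18.5% the third. The 4 windows shown belong to a cytokine that was highest in RTT (Tnf), to 2 ligands that were lowest in RTT_ROSA26 (Tnfsf10 and Tnfsf13b) and to the receptor that led in NK cells (Tnfrsf9). They are written 5′ to 3′ on the gene's strand, with capitals marking motif matches.
Tnf, chr17:35201958-35202257, minus strand: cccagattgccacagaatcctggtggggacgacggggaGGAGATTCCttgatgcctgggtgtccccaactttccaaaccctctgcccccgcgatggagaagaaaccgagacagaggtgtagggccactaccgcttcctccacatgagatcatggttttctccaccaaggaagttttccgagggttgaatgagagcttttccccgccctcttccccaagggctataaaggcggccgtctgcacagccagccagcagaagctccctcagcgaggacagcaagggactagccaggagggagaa
Tnfsf10, chr3:27316827-27317126, plus strand: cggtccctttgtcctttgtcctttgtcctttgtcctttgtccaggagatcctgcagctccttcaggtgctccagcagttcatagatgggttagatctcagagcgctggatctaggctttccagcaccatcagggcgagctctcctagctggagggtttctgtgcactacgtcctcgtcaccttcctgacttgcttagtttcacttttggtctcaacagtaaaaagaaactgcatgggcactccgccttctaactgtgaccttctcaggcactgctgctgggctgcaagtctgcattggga
Tnfsf13b start site 2, chr8:10006383-10006682, plus strand: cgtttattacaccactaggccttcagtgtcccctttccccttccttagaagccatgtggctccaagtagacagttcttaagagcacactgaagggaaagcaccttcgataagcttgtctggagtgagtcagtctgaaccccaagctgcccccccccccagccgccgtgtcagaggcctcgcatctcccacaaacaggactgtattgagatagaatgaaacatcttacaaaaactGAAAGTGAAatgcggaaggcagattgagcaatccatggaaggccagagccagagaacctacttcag
Tnfrsf9 start site 2, chr4:150927749-150928048, plus strand: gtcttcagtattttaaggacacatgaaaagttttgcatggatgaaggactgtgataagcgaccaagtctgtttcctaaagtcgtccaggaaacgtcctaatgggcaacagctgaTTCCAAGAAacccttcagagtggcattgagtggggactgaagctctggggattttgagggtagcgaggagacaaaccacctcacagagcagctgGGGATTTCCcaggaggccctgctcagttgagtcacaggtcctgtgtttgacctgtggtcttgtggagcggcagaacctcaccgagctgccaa
The Tnf match was a kappa B-type sequence at positions -212 to -204 from the start, and the Tnfsf13b match was an interferon core at -16 to -8. Tnfrsf9 held a GAS element at -136 to -128 and a kappa B-type sequence at -42 to -34, and Tnfrsf1b, not printed, held a GAS element at -181 to -173 and an interferon core at -9 to -1. These letters were absent from the windows of Tnfsf10, Tnfsf14 and Fasl and from the other start sites of Tnfsf13b and Tnfrsf9. No match overlapped another, and a match describes the letters only.

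The cell types that carried each ligand were examined first, among types with at least 20 cells in a sample. Tnf, the inflammatory cytokine that gives the family its name, had in neutrophils 284 CPM (254 to 316) in NTT, 211 (188 to 236) in RTT_PTGS12KO, 285 (259 to 313) in RTT and 163 (147 to 180.2) in RTT_ROSA26. Neutrophils were the highest type in each sample except RTT_ROSA26, where 24 mast cells reached 243 CPM (191 to 305). Their interval overlapped that of the 26 Monocyte_3 cells in NTT, at 237 CPM (154 to 350.4), and that of Infl_Mono in RTT, at 255 CPM (228 to 285). Most Tnf UMIs came from the common cells, with 82.5% from monocytes in NTT and 91.2% from macrophages in RTT.

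Tnfsf9, the ligand of the costimulatory receptor CD137, had in CCR7+ DCs 148 CPM (119.9 to 182) in NTT, 91.0 (70.7 to 115) in RTT_PTGS12KO, 137 (78.0 to 222) in RTT and 389 (284 to 518) in RTT_ROSA26, with 12 cells in RTT and 14 in RTT_ROSA26. RTT_ROSA26 was highest there and its interval lay above the other 3. In cDC2s it had 62.2 CPM (52.5 to 73.2) in NTT, 97.2 (87.1 to 108) in RTT_PTGS12KO, 79.4 (67.9 to 92.3) in RTT and 153 (139 to 168) in RTT_ROSA26, so RTT_ROSA26 was again the highest. Among the macrophage clusters with at least 50 cells, TAM_C1q of RTT was highest with 118 CPM (115 to 121).

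Tnfsf10, the death ligand TRAIL, had in the interferon-led Infl_Mono 33.7 CPM (30.5 to 37.2) in NTT, 16.4 (13.01 to 20.3) in RTT_PTGS12KO, 40.05 (29.8 to 52.7) in RTT and 13.9 (6.01 to 27.4) in RTT_ROSA26. Infl_Mono was the highest type in NTT and RTT. In RTT_PTGS12KO its interval overlapped that of Macro, at 18.01 CPM (11.4 to 27.0), and of NK_cells, at 13.6 CPM (10.7 to 17.2), and in RTT_ROSA26 that of NK_cells, at 13.05 CPM (4.79 to 28.4). TAM_C1q and TAM_Spp1 of the 3 resistant samples stayed between 0.346 and 0.847 CPM.

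Tnfsf13b, the B cell survival factor BAFF, had in TAM_H2Ab1 39.8 CPM (31.7 to 49.5) in NTT, 27.6 (23.5 to 32.2) in RTT_PTGS12KO, 11.6 (5.55 to 21.3) in RTT and 12.8 (1.55 to 46.2) in RTT_ROSA26, with 11 such cells in RTT_ROSA26. NTT and RTT_PTGS12KO were the higher samples. In NTT the interval overlapped that of TAM_cycling, at 32.3 CPM (23.6 to 43.1), and in RTT_PTGS12KO that of the 33 Monocyte_3 cells, at 28.1 CPM (7.67 to 72.1) on 4 UMIs. Monocyte_1 had 18.8 CPM in NTT, 15.04 in RTT_PTGS12KO, 19.6 in RTT and 12.1 in RTT_ROSA26, and it was the highest type in RTT.

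Tnfsf12, which encodes the cytokine TWEAK, had in TAM_C1q 30.7 CPM in NTT, 32.1 in RTT_PTGS12KO, 37.2 in RTT and 37.4 in RTT_ROSA26, with 12 cells in NTT. In Macro, a cluster outside the macrophage class, it had 46.3 CPM in NTT, 29.0 in RTT_PTGS12KO, 52.6 in RTT and 33.4 in RTT_ROSA26, and T_CD8 cells had only 1.28 CPM in NTT and 2.59 in RTT_PTGS12KO. Tnfsf14, known as LIGHT and a T cell costimulator, was highest in T_CD8 of NTT, at 29.5 CPM (21.6 to 39.3), and of RTT_PTGS12KO, at 29.4 CPM (20.3 to 41.1). In neutrophils Tnfsf14 had 15.5 CPM in NTT, 15.3 in RTT_PTGS12KO, 29.2 in RTT and 13.1 in RTT_ROSA26. Neutrophils came next in NTT and RTT_PTGS12KO and were highest in RTT. T_CD8 numbered 1 cell in RTT and 2 cells in RTT_ROSA26, with 0 Tnfsf14 UMIs in both.

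Fasl, a killing ligand of cytotoxic lymphocytes, had in NK_cells 60.1 CPM (54.6 to 66.1) in NTT, 36.0 (31.1 to 41.5) in RTT_PTGS12KO, 30.9 (12.4 to 63.6) in RTT and 28.3 (15.1 to 48.3) in RTT_ROSA26. The NTT interval lay above those of RTT_ROSA26 and RTT_PTGS12KO and overlapped that of RTT, which rested on 7 UMIs. NK cells supplied 90.3% of Fasl UMIs in NTT and 80.9% in RTT_PTGS12KO. Among cells thinned to 3000 UMIs, 18.2% of NK cells in NTT and 12.96% in RTT_PTGS12KO had a Fasl UMI, against 42.3% and 40.8% unthinned, and 33 and 5 NK cells were too shallow and left out. In NTT monocytes, which should lack the gene, the thinned share was 0.0155%, at a median depth of 7113 UMIs against 7669 for NK cells. NTT macrophages held 0 Fasl UMIs, which allows up to 0.738 CPM when the limit is set at 3 counts.

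Among the receptors, Cd40, through which helper T cells license antigen-presenting cells, had in CCR7+ DCs 212 CPM (177 to 251) in NTT, 167 (139 to 199) in RTT_PTGS12KO, 196 (124 to 294) in RTT and 135 (77.3 to 219) in RTT_ROSA26. These intervals overlapped across the 4 samples, and CCR7+ DCs were the highest type in NTT and RTT_PTGS12KO. Infl_Mono had 159 CPM (152 to 166) in NTT, 113 (103 to 122) in RTT_PTGS12KO, 75.4 (61.1 to 92.1) in RTT and 69.6 (49.7 to 94.7) in RTT_ROSA26, and NTT was highest there. In TAM_H2Ab1 Cd40 had 132 CPM (116 to 148) in NTT, 93.6 (85.9 to 102) in RTT_PTGS12KO, 61.3 (45.9 to 80.2) in RTT and 89.6 (49.0 to 150.4) in RTT_ROSA26, where NTT overlapped only the 11 cells of RTT_ROSA26. TAM_Spp1 of RTT, at 4.88 CPM (4.02 to 5.87), lay below NK_cells of NTT, at 8.39 (6.40 to 10.8), a type that should have little Cd40.

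Tnfrsf1b, the TNFR2 receptor of TNF, was highest in the 26 Monocyte_3 cells of NTT, at 332 CPM (231 to 462), and the 33 of RTT_PTGS12KO, at 274 (195.1 to 375). Neutrophils had 199 CPM in NTT, 218 in RTT_PTGS12KO, 262 in RTT and 174 in RTT_ROSA26, and were the highest type in RTT and RTT_ROSA26. The Monocyte_3 interval of RTT_PTGS12KO held the neutrophil value of that sample.

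Tnfrsf9, which encodes CD137 on activated lymphocytes, had in NK_cells 626 CPM (608 to 645) in NTT, 531 (512 to 551) in RTT_PTGS12KO, 304 (237 to 385) in RTT and 368 (314 to 427) in RTT_ROSA26, with 13 cells in RTT and 26 in RTT_ROSA26. NK_cells were the highest type in NTT, RTT_PTGS12KO and RTT_ROSA26, and NTT lay above the other 3 samples. CCR7+ DCs had 399 CPM in NTT, 261 in RTT_PTGS12KO, 179 in RTT and 329 in RTT_ROSA26, and T_CD8 had 308 CPM (281 to 336) in NTT and 369.9 (336 to 407) in RTT_PTGS12KO. Thinned to 3000 UMIs, 66.1% of NTT and 58.8% of RTT_PTGS12KO NK cells had a Tnfrsf9 UMI, against 79.3% and 82.4% unthinned, and against a thinned 2.29% and 2.60% of macrophages. TAM_Spp1 was the macrophage cluster with the highest Tnfrsf9, with 82.5 CPM in NTT, 30.0 in RTT_PTGS12KO, 55.5 in RTT and 35.9 in RTT_ROSA26, on 20 cells in NTT.

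**Figure D1:**
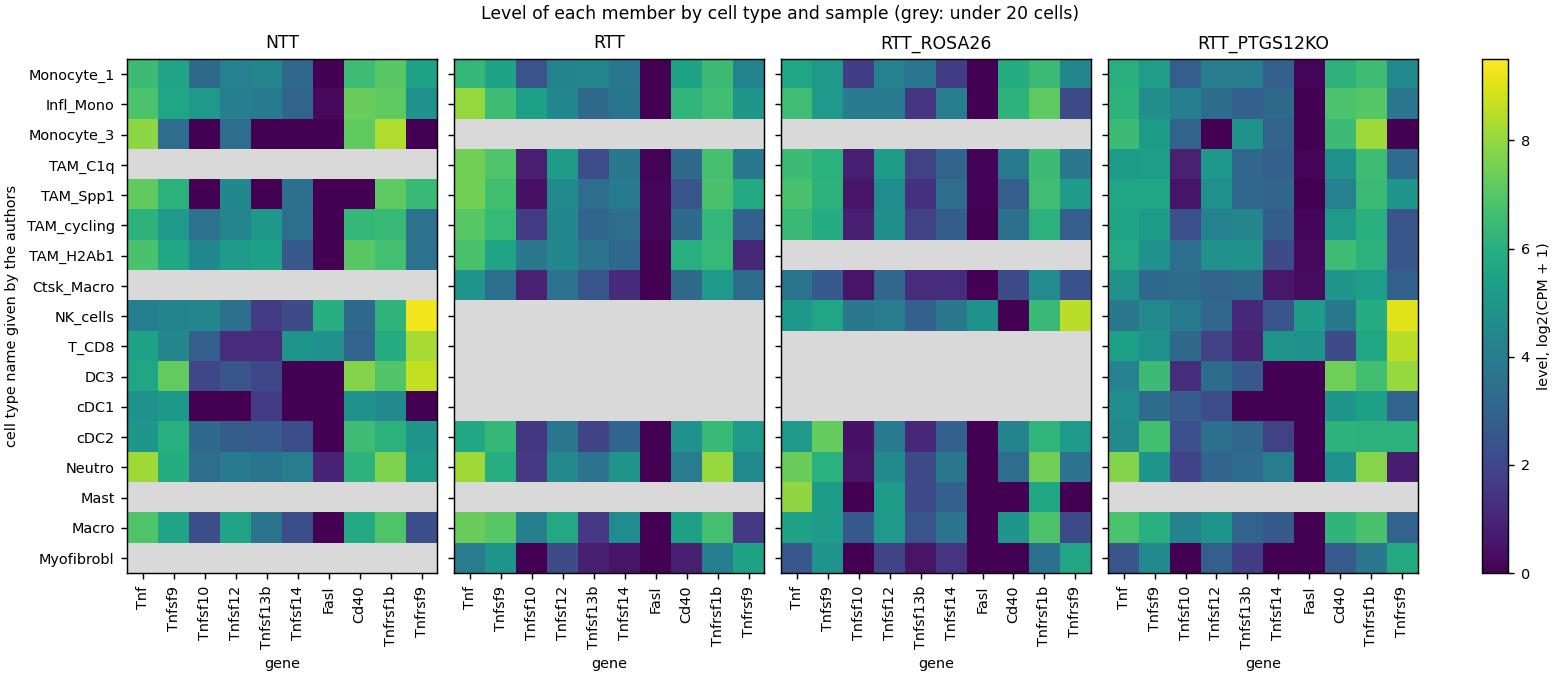
Level of each member (x axis) in each cell type named by the authors (y axis), as log2(CPM + 1) in colour, for the 4 samples, with types under 20 cells in grey. NK_cells are brightest at Tnfrsf9 (626 CPM in NTT), and Fasl is dark outside NK_cells and T_CD8.

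The source of each transcript differed by sample. For Cd40, monocytes gave 85.6% of UMIs in NTT, 46.8% in RTT_PTGS12KO, 21.1% in RTT and 5.11% in RTT_ROSA26, and in RTT monocytes were 6.55% of the cells. For Tnfrsf9, NK cells gave 59.6% of UMIs in NTT from 8.58% of its cells and 50.3% in RTT_PTGS12KO from 2.97%. Macrophages gave 75.0% of Tnfrsf9 UMIs in RTT and 73.2% in RTT_ROSA26, so the leading source changed from NK cells to macrophages between these pairs of samples.

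**Figure D2:**
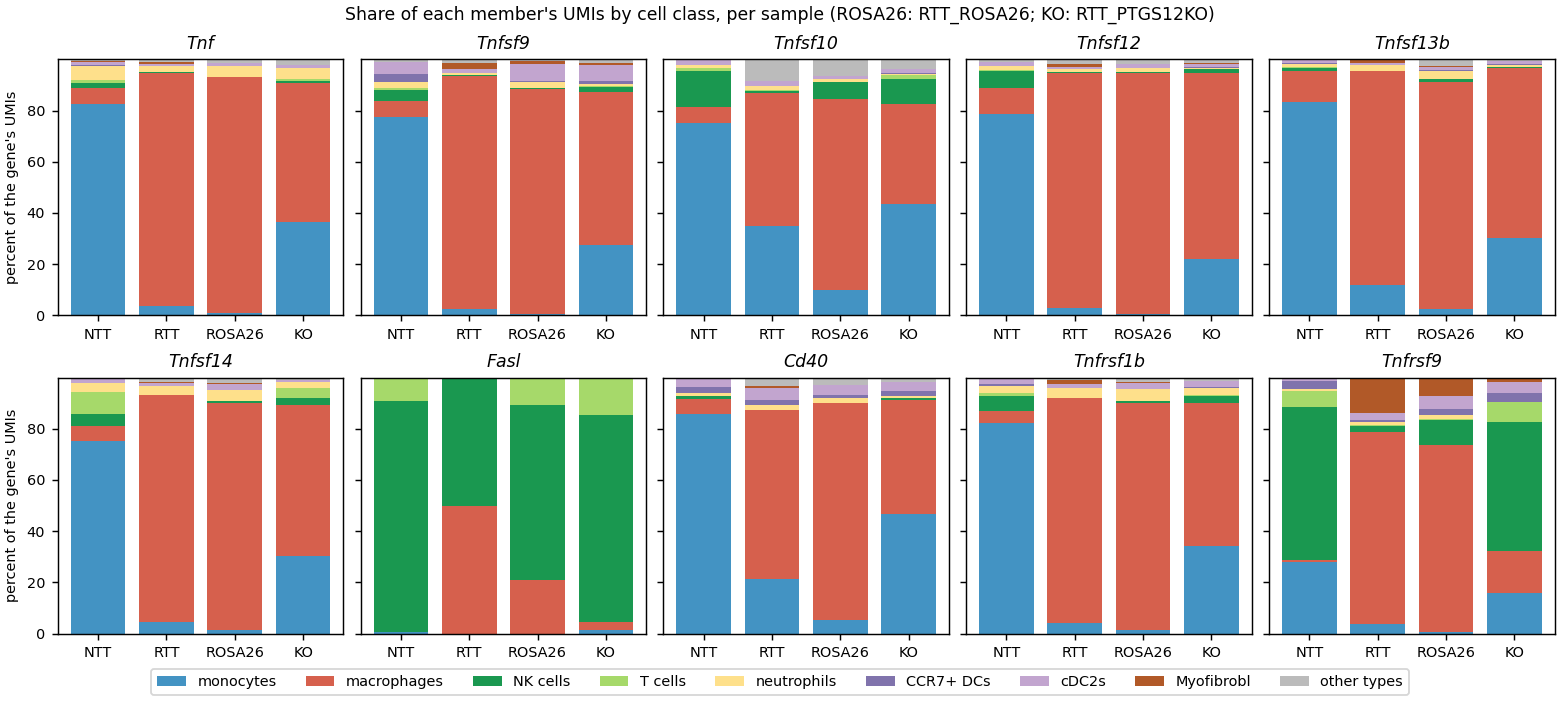
Percent of each member's UMIs (y axis) that came from each cell class in each sample (x axis), stacked to 100%. NK cells gave 90.3% of Fasl and 59.6% of Tnfrsf9 UMIs in NTT, whereas macrophages gave 91.2% of Tnf UMIs in RTT.

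NTT was compared with RTT to ask how the members differ between tumours naive and resistant to targeted therapy. Over all cells, Cd40, Tnfsf10, Tnfrsf9 and Tnfsf13b were at least 2-fold higher in NTT and Tnfsf9 at least 2-fold lower, which is 5 of the 9 members with a mean of at least 5 CPM, against 13.9% of all genes measured that way. The median log2 ratio of the 9 was 0.42 and that of all genes -0.12. Tnfsf10 passed the minimum only through NTT, and with a minimum mean of 10 CPM 3 of 6 members, Cd40, Tnfrsf9 and Tnfsf9, were 2-fold apart, against 12.9% of all genes. Fasl was under the minimum mean, at 6.87 CPM in NTT and 0.120 in RTT. In sums over all cells, more cells of a type and more RNA per cell cannot be told apart, so each class was examined in turn.

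Over all cells Cd40 had 93.0 CPM (90.7 to 95.3) in NTT, 45.7 (44.6 to 46.8) in RTT_PTGS12KO, 10.5 (9.88 to 11.1) in RTT and 11.4 (10.7 to 12.02) in RTT_ROSA26. NTT was highest, RTT_PTGS12KO lay between, and the intervals of RTT and RTT_ROSA26 overlapped. Tnfsf10 had 14.2 CPM in NTT, 4.93 in RTT_PTGS12KO, 1.65 in RTT and 0.826 in RTT_ROSA26, and Tnfsf13b had 15.7, 13.2, 5.96 and 2.37 CPM in the same order of samples. Both ligands were lowest in RTT_ROSA26. Tnfrsf9 had 108 CPM in NTT, 38.0 in RTT_PTGS12KO, 24.2 in RTT and 15.5 in RTT_ROSA26. Beside it the 7 NK markers, all detected in each sample, summed to 1448 CPM in NTT, 327 in RTT_PTGS12KO, 14.96 in RTT and 25.9 in RTT_ROSA26. Without NK_cells and T_CD8, a choice made after seeing the data, the Tnfrsf9 log2 ratio of NTT to RTT went from 2.12 to 0.81 and that of RTT_PTGS12KO to RTT_ROSA26 from 1.24 to 0.24, and 3 of 9 measured members were 2-fold apart between NTT and RTT, against 15.8% of all genes.

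Tnf had over all cells 86.5 CPM (84.3 to 88.7) in NTT, 48.3 (47.2 to 49.4) in RTT_PTGS12KO, 146 (144 to 149) in RTT and 81.1 (79.4 to 82.8) in RTT_ROSA26. RTT was highest and RTT_PTGS12KO lowest. Tnfsf9 had 44.7 CPM in NTT, 37.4 in RTT_PTGS12KO, 91.5 in RTT and 59.6 in RTT_ROSA26, with the same samples at its ends. Tnfsf12 had 15.8, 19.1, 26.1 and 26.8 CPM, Tnfsf14 7.79, 6.26, 11.1 and 6.73 CPM, and Tnfrsf1b 122, 81.7, 91.0 and 76.7 CPM in the same order of samples, each within 2-fold between NTT and RTT.

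Within macrophages 3 of 8 measured members were 2-fold apart between NTT and RTT, against 8.48% of all genes, and ratios are of CPM + 1 throughout. Cd40 had 97.7 CPM (88.3 to 108) in NTT and 8.26 (7.70 to 8.85) in RTT, a log2 ratio of 3.41 (3.25 to 3.58). Tnfsf13b had 32.0 CPM (26.7 to 38.0) in NTT and 5.95 (5.48 to 6.46) in RTT, a log2 ratio of 2.25 (1.99 to 2.51). Both stood higher in NTT. Tnfsf9 was lower in NTT, with 46.5 CPM (40.1 to 53.6) in NTT and 99.3 (97.4 to 101) in RTT, a log2 ratio of -1.08 (-1.28 to -0.88). It fell short of 2-fold with CPM + 10, at -0.95, with classes set by marker UMIs, at -0.88, and in droplet load 3 alone, at -0.82, where Tnf was 2-fold lower in its place. Tnf had 93.7 CPM (84.6 to 104) in NTT and 159 (157 to 162) in RTT, a log2 ratio of -0.76 (-0.90 to -0.61), under 2-fold.

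The 308 NTT macrophages were mainly TAM_H2Ab1, and TAM_cycling, the macrophage cluster with at least 79 cells in every sample, was set beside them. There Cd40 had 78.6 CPM (64.7 to 94.6) in NTT, 34.2 (32.4 to 36.0) in RTT_PTGS12KO, 8.68 (7.38 to 10.1) in RTT and 10.2 (9.29 to 11.2) in RTT_ROSA26. Tnfsf13b had 32.3 CPM in NTT, 19.2 in RTT_PTGS12KO, 7.47 in RTT and 2.53 in RTT_ROSA26, and for both genes NTT was highest and RTT_PTGS12KO next, as over all macrophages. Tnf had 70.2 CPM in NTT, 45.6 in RTT_PTGS12KO, 131 in RTT and 82.99 in RTT_ROSA26, with RTT highest and RTT_PTGS12KO lowest here too. NTT rested on 79 cells, so its order to RTT_ROSA26 was not read. The 9 monocyte markers, all detected in macrophages, summed there to 2069 CPM in NTT, 1077 in RTT_PTGS12KO, 1227 in RTT and 775 in RTT_ROSA26, highest in NTT, and their part in the Cd40 value was not tested. In the same class the 9 macrophage markers summed to 17778 CPM in NTT, 17044 in RTT_PTGS12KO, 35159 in RTT and 27616 in RTT_ROSA26. They were lower in NTT and RTT_PTGS12KO, and their part was not tested.

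Thinned to 3000 UMIs, 26.5% (21.6 to 31.8) of macrophages had a Cd40 UMI in NTT, 8.30% (7.56 to 9.08) in RTT_PTGS12KO, 2.42% (2.06 to 2.81) in RTT and 2.89% (2.48 to 3.35) in RTT_ROSA26, against 57.5%, 30.5%, 9.28% and 13.9% unthinned. From 2 to 38 macrophages a sample were too shallow and left out. NK cells, which should have little Cd40, had thinned shares of 2.37% (1.36 to 3.82) in NTT and 2.99% (1.38 to 5.60) in RTT_PTGS12KO. Median depths were 11598 and 15570 UMIs for macrophages and 7669 and 15524 for NK cells of these samples. The shares in RTT and RTT_ROSA26 macrophages were at this NK-cell level and were not read as expression. Those of NTT and RTT_PTGS12KO lay above it. Another type gave a lower level, since Myofibrobl had 1.27 CPM (0.729 to 2.07) over all samples. RTT and RTT_ROSA26 macrophages, at 8.26 and 10.7 CPM, lay above that, so their background was not settled. Ratios of macrophage Cd40 to RTT or RTT_ROSA26, here and below, may therefore be lower bounds and were not read as exact folds.

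Within monocytes 1 of 9 measured members, Cd40, was 2-fold apart between NTT and RTT, against 3.48% of all genes. It had 107 CPM (104 to 109.9) in NTT, 75.4 (72.7 to 78.0) in RTT_PTGS12KO, 52.6 (46.4 to 59.4) in RTT and 63.9 (49.2 to 81.6) in RTT_ROSA26. NTT was above the 3 resistant samples, and its log2 ratio to RTT was 1.01 (0.83 to 1.19), at the edge of the 2-fold rule. It was under 2-fold with CPM + 10, at 0.90, with the stricter cell filter described further on, at 0.97, and in droplet loads 2 and 3 taken alone, at 0.98 and 0.83. In these 2 loads Tnfrsf9 was the 1 of 9 members called, against 4.55% and 4.35% of all genes. The 9 macrophage markers, all detected in these monocytes, summed to 5450 CPM in NTT, 6570 in RTT_PTGS12KO, 15676 in RTT and 9618 in RTT_ROSA26, and their part in the Cd40 ratio was not tested. Tnfsf10 had 14.4 CPM in NTT and 13.7 in RTT monocytes, a log2 ratio of 0.07 (-0.27 to 0.40), and Tnfsf13b 17.6 and 16.7 CPM, a log2 ratio of 0.07 (-0.24 to 0.38). Both intervals held 0, unlike those over all cells. The Tnfsf10 value depended on how monocytes were defined, since with classes set by marker UMIs in place of the authors' types its log2 ratio was 2.12 and it was 2-fold higher in NTT, as was Cd40, at 1.66.

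**Figure D3:**
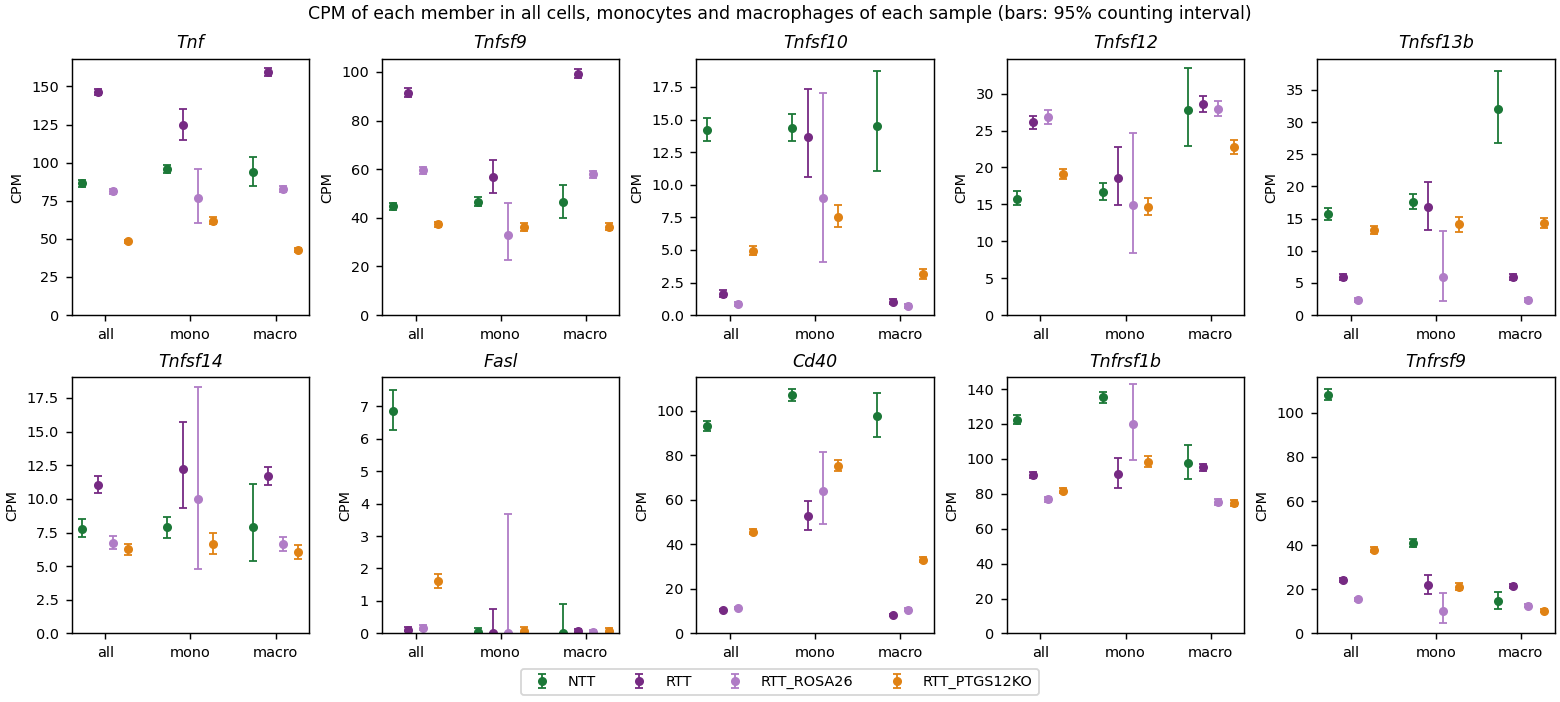
CPM of each member (y axis, own scale per panel) in all cells, monocytes and macrophages of the 4 samples, with bars for the 95% counting interval. Cd40 of macrophages runs from 97.7 CPM in NTT to 8.26 in RTT, and Tnf of macrophages is highest in RTT at 159 CPM.

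By cell type, Cd40 was 2-fold higher in NTT than in RTT in 6 of 6 types with at least 50 cells in both samples, including cDC2s, at 92.1 against 27.3 CPM, and neutrophils, at 70.5 against 15.3 CPM. Tnfsf10 was 2-fold higher in 3 of the 6 types, and Tnfsf13b and Tnfrsf9 in 2 each. Tnfsf9 was 2-fold lower in 1, and its interval lay below 0 in 3 and held 0 in 3. Tnf was 2-fold lower in 1, Infl_Mono, with 112 CPM in NTT and 255 in RTT.

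RTT_PTGS12KO was compared with RTT_ROSA26 to ask how the members differ when the resistant cancer cells lack both cyclooxygenases. Over all cells 4 of 9 measured members were at least 2-fold higher in the knockout and none was 2-fold lower, against 6.14% of all genes in either direction. Tnfsf13b had a log2 ratio of 2.08 (1.94 to 2.21), Cd40 of 1.92 (1.84 to 2.00) and Tnfrsf9 of 1.24 (1.16 to 1.31), and Tnfsf10 had 4.93 CPM (4.58 to 5.30) against 0.826 (0.665 to 1.01). Tnfsf10 lay under 5 CPM in both samples and was counted as measured only through its level in NTT. With a minimum mean of 10 CPM 2 of 6 members, Cd40 and Tnfrsf9, were 2-fold higher, against 5.91% of all genes. The median log2 ratio was 0.09 over the measured members and -0.13 over all genes.

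Within macrophages Tnfsf13b and Cd40 were 2-fold higher, 2 of 8 measured members against 3.38% of all genes. Tnfsf13b was under 5 CPM in RTT_ROSA26 and was counted as measured through the samples where it was higher, so that count is partly set by the minimum. Tnfsf13b had 14.3 CPM (13.6 to 15.1) in RTT_PTGS12KO and 2.33 (2.04 to 2.65) in RTT_ROSA26, a log2 ratio of 2.20 (2.05 to 2.35). Its RTT_ROSA26 level lay within the interval of NK_cells over all samples, at 1.91 CPM (1.23 to 2.81), a type that should have little Tnfsf13b. It lay above that of Myofibrobl, at 0.876 CPM (0.437 to 1.57), so the background was not settled. Ratios to RTT_ROSA26 may therefore be lower bounds for this gene too, in the clusters below as well. Cd40 had 33.1 CPM (31.9 to 34.3) in RTT_PTGS12KO and 10.7 (10.1 to 11.4) in RTT_ROSA26, a log2 ratio of 1.54 (1.45 to 1.63). Tnf was lower in the knockout, with 42.8 CPM (41.4 to 44.2) in RTT_PTGS12KO and 82.7 (80.9 to 84.5) in RTT_ROSA26, a log2 ratio of -0.93 (-0.99 to -0.88), just under 2-fold. Tnfsf9 had 36.4 against 57.9 CPM. Tnfsf12, Tnfsf14, Tnfrsf1b and Tnfrsf9 differed by log2 ratios between -0.28 and -0.01, and Tnfsf10, at 3.14 against 0.683 CPM, was under the minimum mean.

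In the 3 droplet loads taken singly, macrophage Cd40 lay between 31.3 and 34.9 CPM in RTT_PTGS12KO and between 10.1 and 11.4 in RTT_ROSA26. Loads are repeat captures of the same pool and are not replicates. The 12 immediate-early genes, a list added after the members' values were seen and all detected, summed in macrophages to 4677 CPM in NTT, 4642 in RTT_PTGS12KO, 4854 in RTT and 3806 in RTT_ROSA26. They were lowest in RTT_ROSA26 and Tnf was lowest in RTT_PTGS12KO, and their part in the Tnf value was not tested. In monocytes they summed to 7984 CPM in NTT, 5927 in RTT_PTGS12KO, 5586 in RTT and 6157 in RTT_ROSA26, and over all cells to 6913 CPM in NTT, 4943 in RTT_PTGS12KO, 4907 in RTT and 3959 in RTT_ROSA26. There they were highest in NTT, as were Cd40 and Tnfrsf9, and their part in those values was not tested.

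Cluster by cluster, Cd40 was 2-fold higher in RTT_PTGS12KO in 6 of 9 types with at least 50 cells in both samples, and its interval lay above 0 in 8 of 9. Tnfsf13b was 2-fold higher in 7 of 9 types, and its interval lay above 0 in 6 and held 0 in 3, with 7.88 against 2.58 CPM in TAM_C1q, 7.94 against 1.60 in TAM_Spp1 and 7.72 against 1.09 in cDC2s, the last on 3 UMIs in RTT_ROSA26. Tnf was 2-fold lower in TAM_C1q, at 35.4 against 89.5 CPM, and in TAM_Spp1, at 47.0 against 109, but 2-fold higher in Ctsk_Macro, at 27.7 against 11.6, and in Macro, at 110.4 against 43.3. The direction of Tnf thus differed between clusters. That of Tnfrsf9 differed too, since it was 2-fold higher in 2 and 2-fold lower in 1 of the 9 types. Its interval lay above 0 in 1, below 0 in 4 and held 0 in 4.

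Within monocytes 2 of 9 measured members, Tnfsf13b and Tnfrsf9, were 2-fold higher in RTT_PTGS12KO, against 5.16% of all genes. Tnfsf13b had 14.1 CPM (12.97 to 15.3) against 5.99 (2.20 to 13.03), and Tnfrsf9 21.3 (19.9 to 22.7) against 9.98 (4.79 to 18.4). The RTT_ROSA26 values rest on 144 cells with 6 and 10 UMIs, and with the stricter cell filter (over 1500 genes, under 10% mitochondrial UMIs) 0 members were 2-fold apart here or in NTT against RTT monocytes. With RTT in place of RTT_ROSA26, both log2 ratios turned round, to -0.23 for Tnfsf13b and -0.035 for Tnfrsf9. Cd40 had 75.4 against 63.9 CPM, a log2 ratio of 0.24 (-0.12 to 0.59) whose interval held 0. Infl_Mono made up 86 of the 144 RTT_ROSA26 monocytes but 635 of the 4015 in the knockout. Within Infl_Mono the Cd40 log2 ratio was 0.69 (0.23 to 1.14), above 0 and under 2-fold. With classes set by marker UMIs 3 of 9 members were 2-fold higher in knockout monocytes, against 10.5% of all genes, with log2 ratios of 2.24 for Cd40, 2.31 for Tnfsf10 and 2.70 for Tnfsf13b.

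**Figure D4:**
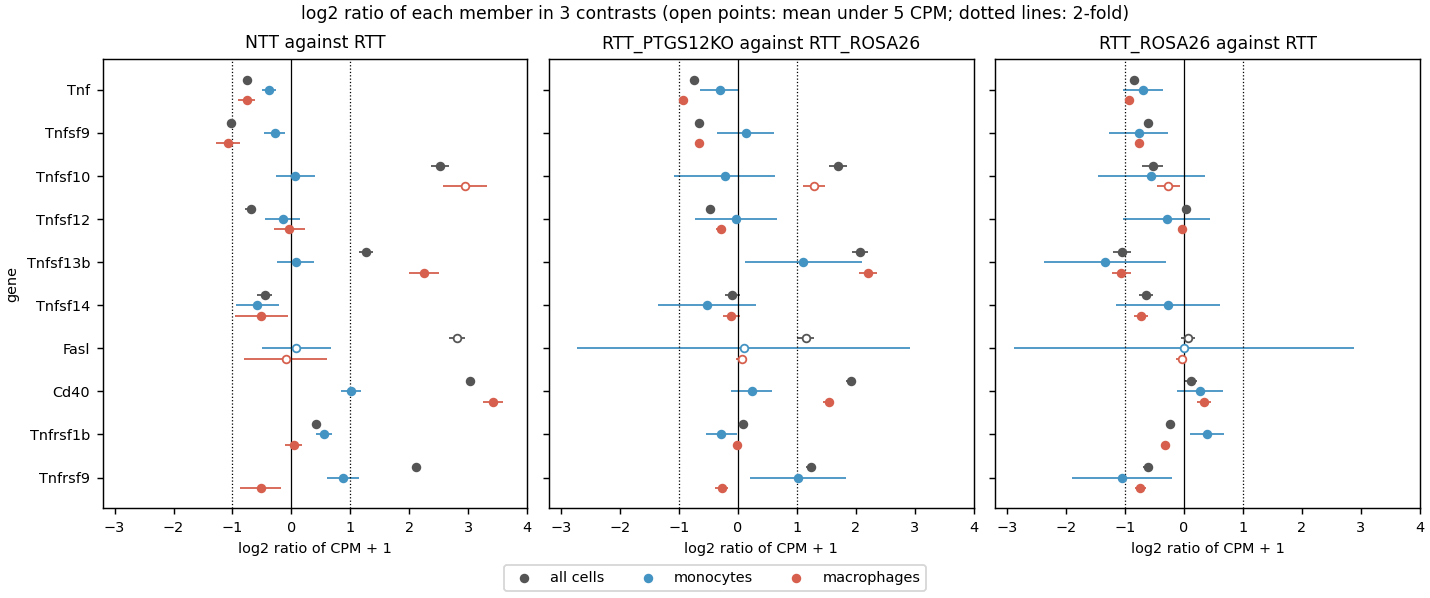
log2 ratio of CPM + 1 for each member (y axis) in all cells, monocytes and macrophages, with approximate 95% counting intervals, in NTT against RTT, RTT_PTGS12KO against RTT_ROSA26 and RTT_ROSA26 against RTT. Cd40 and Tnfsf13b of macrophages lie beyond the dotted 2-fold lines in the first 2 panels (3.41 and 2.25, then 1.54 and 2.20), and open points have a mean under 5 CPM.

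RTT_ROSA26 was compared with RTT as a yardstick, since both are resistant lines that keep Ptgs1 and Ptgs2. It shares a library with each comparison above, so the 3 are not independent. Over all cells 1 of 9 measured members, Tnfsf13b, was 2-fold apart, against 1.61% of all genes, in macrophages 1 of 8, again Tnfsf13b, against 1.31%, and in monocytes 2 of 9, Tnfsf13b and Tnfrsf9, against 5.39%. All were lower in RTT_ROSA26. Over all cells and in macrophages the mean of Tnfsf13b over these 2 samples was under 5 CPM, and it was measured through NTT and RTT_PTGS12KO. With monocytes set by marker UMIs 2 of 9 members, Tnfsf13b and Cd40, were 2-fold lower, the latter at -1.12, against 5.42% of all genes. The Tnfsf13b level of RTT_ROSA26 was at that of NK cells, so no exact ratio was read, and its call in macrophages was lost with CPM + 10 and in load 3 alone. In macrophages Tnf had a log2 ratio of -0.94 (-0.98 to -0.90), close in size to the Tnf ratio of the knockout to RTT_ROSA26. The Tnf interval lay below 0 in 10 of 10 types. Macrophage Cd40 was at the level of NK cells in both samples, so its ratio was not read.

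With RTT in place of RTT_ROSA26 as the reference, a choice made after seeing the data, macrophages of RTT_PTGS12KO had log2 ratios of 1.88 for Cd40, 1.14 for Tnfsf13b, -1.87 for Tnf, -1.42 for Tnfsf9 and -1.01 for Tnfrsf9, and 5 of 8 measured members, 2 higher and 3 lower, were 2-fold apart, against 4.12% of all genes. Cd40 and Tnfsf13b were at least 2-fold higher in knockout macrophages against either reference, and Tnf and Tnfsf9 passed 2-fold only against RTT. Over all cells 5 of 9 members were 2-fold apart from RTT, 3 higher and 2 lower, against 6.03% of all genes. Tnf, at -1.58, and Tnfsf9, at -1.27, were the lower ones, and Tnfrsf9 fell under 2-fold, at 0.63.

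To set these ratios beside the shift from monocytes to macrophages, the log2 ratio over both classes was recomputed with each cell type held at its level over the 2 samples compared, so that only cell numbers and their total UMIs differed. For NTT against RTT this gave 2.72 against 3.24 observed for Cd40, 2.39 against 2.55 for Tnfsf10 and -0.97 against -1.05 for Tnfsf9. Most types were found largely in either NTT or RTT, so type and sample can hardly be told apart in that comparison. For RTT_PTGS12KO against RTT_ROSA26 it gave 0.47 against 2.18 observed for Tnfsf13b, 0.98 against 1.95 for Cd40, 0.82 against 1.65 for Tnfsf10 and 0.01 against -0.75 for Tnf. For RTT_ROSA26 against RTT it gave -0.16 against -0.92 observed for Tnf. A type held mostly by 1 of the samples has a common level close to that sample's own, so the gap between both values can understate the difference within types. Within the 6 types with at least 50 cells in both NTT and RTT, Cd40 log2 ratios ran from 1.02 to 3.04.

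**Figure D5:**
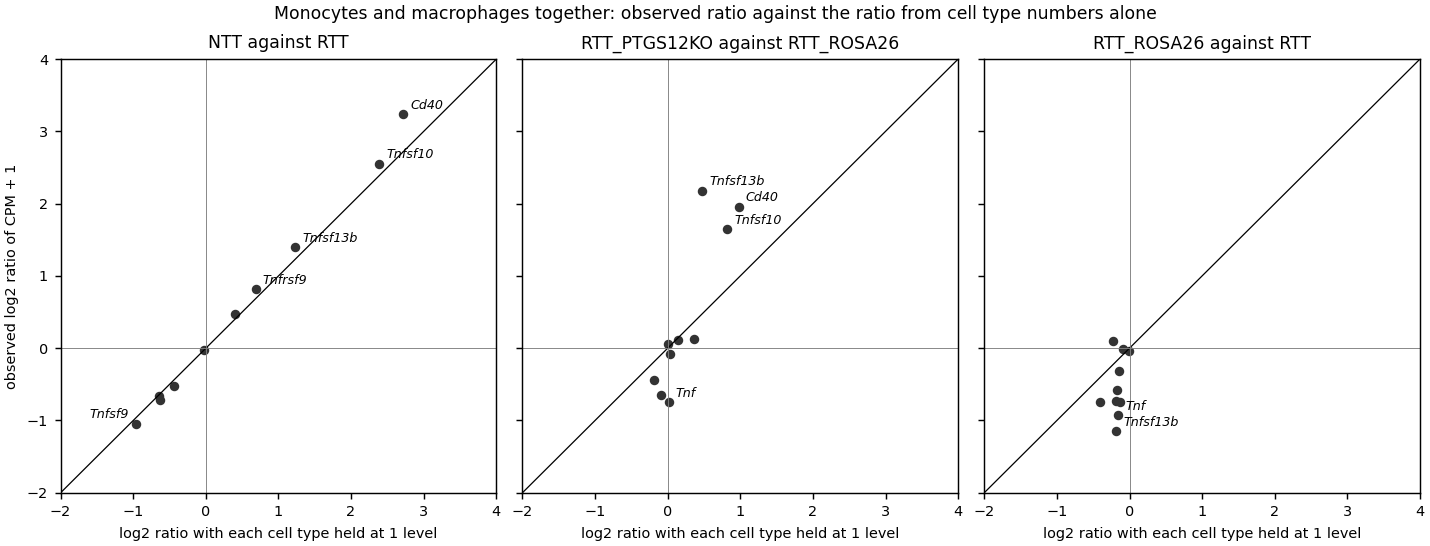
Observed log2 ratio of CPM + 1 in monocytes and macrophages together (y axis) against the ratio obtained when each cell type is held at a common level and only cell numbers differ (x axis), 1 point per member, with a line at equality. In the knockout panel Tnfsf13b (0.47 and 2.18) and Cd40 (0.98 and 1.95) lie above the line and Tnf (0.01 and -0.75) below it.

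Other genes of the pathway were counted by the same rule. Of 11 other ligands 2 had a mean of at least 5 CPM, Tnfsf8 and Tnfsf13. Tnfsf8, the ligand of CD30, was 2-fold lower in RTT_PTGS12KO than in RTT_ROSA26 over all cells, at 7.25 against 20.2 CPM, and in macrophages, at 8.93 against 21.3. In monocytes it had 6.52 CPM in NTT and 5.99 in RTT_ROSA26, both 2-fold under the 16.7 of RTT, the RTT_ROSA26 value resting on 6 UMIs (2.20 to 13.03 CPM). Tnfsf13, known as APRIL, was 2-fold lower in RTT_PTGS12KO than in RTT_ROSA26 monocytes, at 34.8 against 78.8 CPM. Neither was 2-fold apart between NTT and RTT over all cells or in macrophages. With 2 genes measured these counts cannot be read against the shares of all genes, which in monocytes were 3.48% for NTT against RTT, 5.16% for the knockout and 5.39% for RTT_ROSA26 against RTT, and for the knockout 6.14% over all cells and 3.38% in macrophages.

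Of 25 other receptors 11 were measured over all cells and 9 in monocytes and in macrophages. Over all cells 2, Fas and Tnfrsf18, were higher and 1, Tnfrsf23, lower in NTT than in RTT, the same 2 were higher in RTT_PTGS12KO than in RTT_ROSA26, and 0 were 2-fold apart between RTT_ROSA26 and RTT, beside 13.9%, 6.14% and 1.61% of all genes. Tnfrsf18, which encodes GITR, was named after its values were seen. Fas, the receptor of FASL, had 34.5 CPM in NTT, 22.6 in RTT_PTGS12KO, 10.1 in RTT and 7.84 in RTT_ROSA26, but within macrophages 14.3 CPM in NTT, 12.6 in RTT_PTGS12KO, 8.69 in RTT and 6.85 in RTT_ROSA26, under 2-fold. Tnfrsf23, a decoy receptor of TRAIL, was the 1 of 9 that was 2-fold apart in macrophages, beside 8.48% of all genes, with 12.8 CPM in NTT and 30.3 in RTT. In monocytes 0 of 9 were 2-fold apart in any comparison. Tnfrsf11a, which encodes RANK, had 21.7 CPM in NTT, 35.6 in RTT_PTGS12KO, 40.4 in RTT and 52.8 in RTT_ROSA26 macrophages, and like Tnfrsf13b and Tnfrsf21 it stayed within 2-fold in the comparisons made.

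Of 23 adaptors and regulators 22 were measured. Over all cells 3 were higher in NTT than in RTT, Traf1, Nfkbie and Relb, and 0 were 2-fold apart in the other comparisons. The 3 are 3 of 22, a share close to the 13.9% of all genes. Traf1, an adaptor of TNFR2 and CD137, had 94.3 CPM in NTT, 35.4 in RTT_PTGS12KO, 17.4 in RTT and 21.3 in RTT_ROSA26. In monocytes it had 85.4 CPM in NTT and 38.9 in RTT and was the 1 of 22 that was 2-fold apart in that comparison, beside 3.48% of all genes. Map3k14, the NF-kB inducing kinase, was 2-fold higher in RTT_ROSA26 than in RTT monocytes, at 14.97 CPM (8.38 to 24.7) on 15 UMIs against 6.73 (4.63 to 9.45) on 33, and was 1 of 22, beside 5.39% of all genes. In macrophages Nfkbia, an inhibitor of NF-kB, had 359 CPM in NTT, 291 in RTT_PTGS12KO, 721 in RTT and 382 in RTT_ROSA26, so RTT was highest as it was for Tnf, and NTT was 2-fold lower, 1 of 22 beside 8.48% of all genes. Birc3, Zfp36, Traf6 and Cflar had log2 ratios between -0.07 and 0.60 in macrophages for NTT against RTT and for the knockout against RTT_ROSA26.

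The genes whose pattern lay nearest to each member were found by Pearson correlation of log2(CPM + 1) over 42 groups of at least 50 cells, each a cell type in a sample, among 8835 genes. The groups share libraries and differ in depth, so r is a description. Cd40 was nearest to Stat2 (r = 0.94), Tapbp and Phf11b, Tnfsf10 to Ifi206 (0.88), BC147527 and Ddx58, and Tnfsf13b to Hk3 (0.85), Fcgr4 and Nampt. Tnf was nearest to Rab20 (0.90), Cxcl2 and Clec4d, Tnfsf9 to Cnpy3 (0.76), Fosb and Flrt3, and Tnfsf14 to Tmem71 (0.80) and Il17ra. Tnfsf12 was nearest to C1qb (0.89), C1qa and Prxl2b, Tnfrsf1b to Birc3 (0.92), Srgn and Junb, and Tnfrsf9 to Tnfrsf18 (0.77), Ly75 and Klri2. Among the members themselves Tnf and Tnfrsf1b were the closest pair (r = 0.78), followed by Tnf and Tnfsf14 (0.71) and Tnfsf10 and Cd40 (0.66), and Tnfsf12 and Tnfrsf9 the farthest apart (-0.50). Fasl was under 5 CPM on average and was not ranked.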

How the data were processed

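CD45+ cells of 4 samples, 1 per group, carried a sample oligo each and were captured together in 3 droplet loads by a method that reads the 3′ ends of transcripts. The UMI counts per gene and cell were deposited by the authors with a sample and cell type name for each cell. According to its methods section, the study made the counts with cellranger multi against an mm10 reference, kept cells above a minimum of detected genes and named the types in Seurat 4.3.0 after Harmony batch correction. All deposited cells passed that minimum.

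UMIs were summed per sample and class and divided by the matrix totals, not the authors' table of totals, to give CPM. Ratios were log2 of CPM + 1, a gene was measured at a mean of at least 5 CPM over the 4 samples, and called at a 2-fold ratio. No p-value was computed. Python 3.11.15, numpy 2.4.6, scipy 1.17.1, pandas 2.3.3 and matplotlib 3.10.9 were used, and edgeR 4.0.16 in R 4.3.3 gave only TMM factors. The steps were tested on simulated data. The oligos remove doublets between samples, and as an alternative the 5% of cells with most UMIs were dropped. The members and lists were chosen with earlier results of these data known. All members are named, and of other lists the 3 genes farthest from 0 in monocytes or macrophages for NTT against RTT or RTT_PTGS12KO against RTT_ROSA26, and the 3 nearest genes of each member, of which 1 is not reported here. The immediate-early list, the leaving out of NK_cells and T_CD8 or of Myofibrobl, and RTT as reference were chosen after seeing the data. Planned lengths and identities of proteins were not analysed here.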

Additional observations from a re-analysis of the deposited data

How the results depend on the processing

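No paired analysis was possible because a group holds only 1 sample. The count of members 2-fold apart is given where it moved by over 1.5 times, with the share of all genes 2-fold apart in the same setting, in the order NTT against RTT, RTT_PTGS12KO against RTT_ROSA26 and RTT_ROSA26 against RTT. With CPM + 10 it was 3, 1 and 0 in all cells (8.06%, 3.12% and 0.549% of all genes), 0, 0 and 0 in monocytes (1.56%, 1.33% and 1.12%), and 1 and 0 in the last 2 comparisons in macrophages (1.65% and 0.358%), since a larger pseudocount shrinks low genes. With a minimum of 10 CPM it was 3, 2 and 0 in all cells (12.9%, 5.91% and 1.52%), and without NK_cells and T_CD8 3 for NTT against RTT (15.8%). Cells with over 1500 genes and under 10% mitochondrial UMIs left 0, 0 and 1 in monocytes (3.49%, 5.71% and 5.97%), and classes set by marker UMIs gave 2 there for NTT against RTT, Tnfsf10 and Cd40 (7.13%). TMM factors gave 2 in macrophages for RTT_ROSA26 against RTT (1.35%), and they moved the median of all genes over all cells from -0.12 to 0.02 for NTT against RTT and from -0.13 to -0.01 for the knockout. For RTT_ROSA26 against RTT, load 1 alone gave 4 in monocytes (15.7%) and 2 in macrophages (1.59%), load 2 gave 4 in monocytes (19.5%), and load 3 gave 0 in all cells (1.61%) and 0 in macrophages (1.27%). Load 1 gave 5 in macrophages for NTT against RTT (9.92%), and load 3 gave 4 in monocytes for the knockout, 2 higher and 2 lower (11.8%). The share of all genes in monocytes of single loads thus stood above the 5.39% and 5.16% of the loads together. With RTT as the knockout's reference the count was 1 in monocytes (2.00%) and 5 in macrophages (4.12%). Tnfsf9 over all cells fell short of 2-fold for NTT against RTT with CPM + 10, TMM factors, load 3 alone and without NK_cells and T_CD8. The cause of these moves other than those of CPM + 10 was not tested. Called ratios that changed sign were in RTT_PTGS12KO against RTT_ROSA26 monocytes, Tnfrsf9 at -0.59 with classes set by marker UMIs and at -0.035 with RTT as reference, and Tnfsf13b at -0.23 with RTT as reference.

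In macrophages, over 8 planned settings, Cd40 ratios ran from 2.56 to 3.69 in the first comparison and from 1.06 to 1.79 in the second, and Tnfsf13b ratios from 1.40 to 2.45 and from 0.98 to 2.28, each lowest with CPM + 10. Over all cells Tnfrsf9 ratios ran from 0.81 to 2.27 and from 0.24 to 1.36, lowest without NK_cells and T_CD8. A single sample per group leaves the variation between tumours unknown, and the 144 monocytes of RTT_ROSA26 limit every ratio that uses them.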
